A study of Mus musculus with 6 samples.

Results

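The transcripts of 10 Toll-like receptor genes, Tlr1 to Tlr9 and Tlr13, were examined in tumour-associated macrophages (TAMs) with and without a myeloid deletion of Pdcd1, the gene of the inhibitory receptor PD-1. The 10 symbols were taken as a gene family and mapped to Ensembl identifiers, whatever their level or change. They are 10 of 55421 genes in the table of counts, and all 10 were among the 14469 genes with enough counts to be tested. They were read as surface receptors (Tlr1, Tlr2, Tlr4, Tlr5 and Tlr6) and endosomal receptors (Tlr3, Tlr7, Tlr8, Tlr9 and Tlr13).

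Toll-like receptors are membrane proteins of innate immune cells that recognise conserved molecules of microbes and of damaged cells. Surface receptors bind bacterial lipids and proteins, TLR2 as a pair with TLR1 or TLR6, TLR4 with its partner MD-2, and TLR5 alone for flagellin. Endosomal receptors bind nucleic acids that reach the endosome. These are double-stranded RNA for TLR3, single-stranded RNA for TLR7, bacterial ribosomal RNA for TLR13 and DNA with CpG motifs for TLR9. Nearly all signal through the adaptor MyD88, while TLR3 uses TRIF and TLR4 uses both. Macrophages carry receptors of both classes.

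The control group was Pdcd1f/f, mice whose Pdcd1 gene carries loxP sites and which have no Cre, and the other group was Pdcd1f/fLysMcre, mice with the same floxed gene and Cre in the lysozyme locus Lyz2, which is active in macrophages, monocytes and neutrophils. All mice carried implanted tumours, named M17 in the labels and MC17-51 fibrosarcoma in the study's methods, and were 8 to 12 weeks old by the methods. TAMs were collected on day 15 as CD11b+F4/80+ cells. The methods give the gate for TAMs, written for another floxed strain, as live CD45+CD11b+F4/80+Ly6G- cells. PolyA RNA of 3 libraries for each genotype was sequenced as paired-end reads of 42 nt. By the methods, males and females were used in equal numbers in every experiment, but the sex of the mice behind each library is not given. No source says whether a library came from 1 mouse or from pooled mice, so the p-values measure the spread between these libraries.

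Library totals ranged from 41833823 to 51417209 counts, and 3 counts were worth 0.0583 to 0.0717 CPM, a floor that reflects counting error alone. Lyz2, the locus that holds Cre, had 189889 to 242873 counts in Pdcd1f/f and 418 to 503 in Pdcd1f/fLysMcre. Cre and the fall of Lyz2 go with the genotype in every library. Neither can be told apart here from the deletion of Pdcd1. Pdcd1 had 10, 12 and 15 counts in Pdcd1f/f and 7, 16 and 11 in Pdcd1f/fLysMcre, so its counted transcript did not separate the genotypes (log2 fold change -0.25, 95% interval -1.24 to 0.74, adjusted p = 0.771 from edgeR). All 7 macrophage markers examined were counted in every library, with summed normalised counts of 226975 to 261073 in Pdcd1f/f and 191545 to 202347 in Pdcd1f/fLysMcre, and 4 of the 7 fell. Some libraries stood apart by the GC content of genes. In Pdcd1f/f replicate 1 and Pdcd1f/fLysMcre replicate 2 the deviation of genes from their group mean fell with GC content (Spearman rho -0.62 and -0.53 over 14454 genes), whereas in Pdcd1f/f replicate 3 and Pdcd1f/fLysMcre replicate 3 it rose with it (0.55 and 0.54). The summed Y-linked transcripts were 1545 to 1914 in Pdcd1f/f and 6267 to 7233 in Pdcd1f/fLysMcre, and Xist was 17318 to 26511 against 8530 to 13137. Both kinds of transcript were present in every library, their levels did not overlap between the genotypes, and the mix of sexes and the genotype cannot be told apart in these libraries.

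Of the 10 receptor genes, 1 changed: Tlr8, one of the endosomal receptors, fell by 33.9% in TAMs of Pdcd1f/fLysMcre mice. No receptor gene rose. The fitted change was negative for 9 of the 10, all 5 endosomal receptors and 4 of 5 surface receptors, and positive for Tlr2 alone. Genotypes were compared on raw counts by edgeR's quasi-likelihood test with an adjusted p under 0.05 taken as a change, and 5.43% of all genes tested passed it in either direction, 3.01% as lower. In 7 of the 10 receptor genes every Pdcd1f/fLysMcre library lay below every Pdcd1f/f library by the authors' normalised counts. On another scale, that of edgeR's TMM factors, 12.8% of all genes tested had this pattern. Values below are the authors' normalised read counts, that is counts divided by a size factor per library, listed for replicates 1, 2 and 3.

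**Figure D1:**
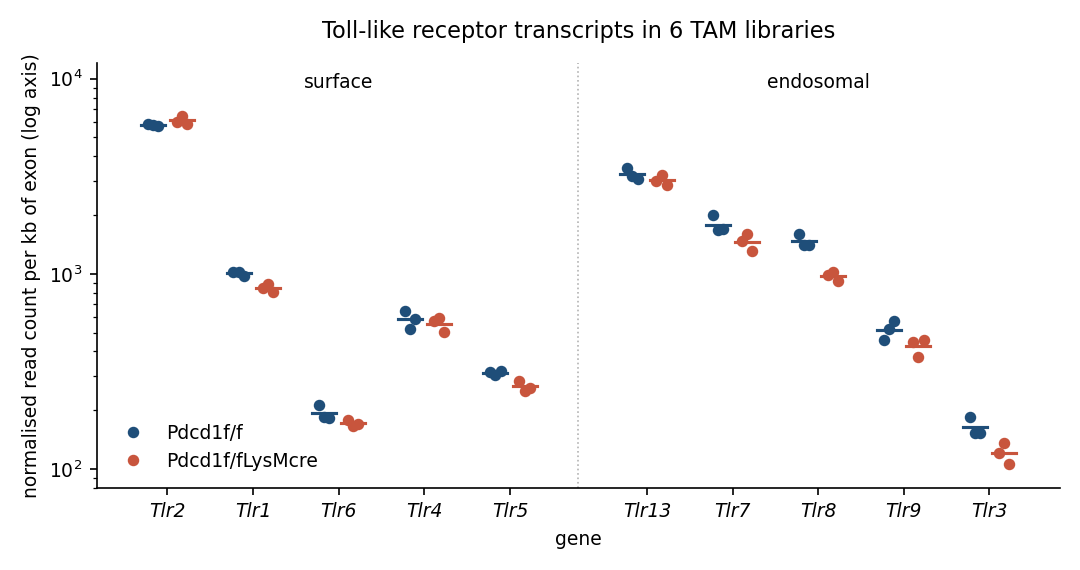
Normalised read count per kb of exon on a log axis for the 5 surface and 5 endosomal receptor genes, with 1 point per library and a line at the mean of the 3 libraries of a genotype. Tlr2 stands highest, Tlr6 and Tlr3 lowest, and the Tlr8 points of the genotypes are clearly apart.

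Levels were compared between genes per kb of exon. Tlr2 was the most abundant receptor transcript, at 5787 ± 97.2 normalised counts per kb (SD, n = 3) in Pdcd1f/f and 6112 ± 318 in Pdcd1f/fLysMcre. Tlr13 followed at 3254 ± 225 and 3009 ± 186, then Tlr7 at 1789 ± 192 and 1457 ± 144, and Tlr8 at 1474 ± 117 and 972 ± 51.6. Tlr1 stood at 1005 ± 25.0 and 847 ± 36.1. The remaining 5 genes, Tlr4, Tlr9, Tlr5, Tlr6 and Tlr3, had means of 585.8 down to 164 in Pdcd1f/f and 555.7 down to 121 in Pdcd1f/fLysMcre. The order of the 10 genes was the same in both genotypes, and with the length of all annotated exons each gene was above the next in 6 of 6 libraries. With the length of the longest transcript instead, the order of the means was the same, but Tlr6 was above Tlr3 in 5 of 6 libraries, their Pdcd1f/f means were nearly equal (196.6 and 193.8), and the Pdcd1f/fLysMcre ranges of Tlr8 and Tlr1 overlapped (958 to 1065 against 897.1 to 976.9). By the length of all exons, the Pdcd1f/f ranges of Tlr4 and Tlr9 overlapped (522.4 to 644.9 against 459.1 to 569.7 per kb), as did those of Tlr6 and Tlr3 (183.4 to 213 against 153.1 to 185.6). By the longest transcript those of Tlr4 and Tlr9 did not overlap (712 to 878.9 against 459.1 to 569.7). The most abundant receptor was therefore a surface one and the next 3 were endosomal.

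Among the surface receptors, Tlr2 (ENSMUSG00000027995, chromosome 3 of GRCm38 from 83836272 to 83841767), the receptor of bacterial lipoproteins, had 17738, 17440 and 17153 normalised counts in Pdcd1f/f and 18048, 19511 and 17703 in Pdcd1f/fLysMcre. The groups overlapped, and the log2 fold change of 0.08 had a 95% interval of -0.06 to 0.22 (adjusted p = 0.447 from edgeR). A fall of the size seen for Tlr8 lies outside this interval, and with a library left out the value ran from 0.04, without Pdcd1f/fLysMcre replicate 2, to 0.10.

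Tlr1 and Tlr6 encode the partners of TLR2 and lie next to each other on chromosome 5, from 64924679 to 64933563 and from 64952031 to 64960097. Tlr1 had 3424, 3399.9 and 3268 normalised counts in Pdcd1f/f and 2832, 2955 and 2714 in Pdcd1f/fLysMcre. All Pdcd1f/fLysMcre libraries were lower, and the log2 fold change was -0.25 (95% interval -0.39 to -0.10) with an adjusted p of 0.0529 from edgeR, just outside the threshold. Tlr6 had 794, 692 and 683 normalised counts in Pdcd1f/f and 662, 622 and 633 in Pdcd1f/fLysMcre. These groups did not overlap either, but the interval of its log2 fold change reached zero (-0.18, 95% interval -0.38 to 0.02, adjusted p = 0.258 from edgeR). With a library left out, the Tlr6 value ran from -0.22 to -0.11, the latter without Pdcd1f/f replicate 1. The pair share sequence: 17.2% of the 42-nt words of Tlr1 transcripts and 14.1% of those of Tlr6 occurred in another gene, mostly in each other, so part of their reads could be counted for either gene or lost.

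Tlr4 (chromosome 4 from 66827584 to 66930284), the receptor of lipopolysaccharide, had 3583, 2903 and 3278 normalised counts in Pdcd1f/f and 3178, 3299 and 2784.5 in Pdcd1f/fLysMcre. The groups overlapped, and the log2 fold change of -0.07 (95% interval -0.28 to 0.13) was within the spread between libraries (adjusted p = 0.652 from edgeR). With a library left out, its log2 fold change ran from -0.15 without Pdcd1f/f replicate 2 to -0.0087 without Pdcd1f/f replicate 1, and it passed in 0 of 6 such fits. Tlr5 (chromosome 1 from 182954788 to 182976044), the flagellin receptor, had 1511, 1445 and 1522 normalised counts in Pdcd1f/f and 1355.5, 1204 and 1244 in Pdcd1f/fLysMcre. Its groups did not overlap, yet the change was not past the threshold (log2 fold change -0.23, 95% interval -0.40 to -0.07, adjusted p = 0.0915 from edgeR).

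Among the endosomal receptors, Tlr8 (ENSMUSG00000040522, chromosome X from 167242696 to 167264329, minus strand) had 5767, 5055 and 5030.4 normalised counts in Pdcd1f/f and 3517, 3653 and 3287 in Pdcd1f/fLysMcre. The lowest Pdcd1f/f library was well above the highest Pdcd1f/fLysMcre library. The log2 fold change was -0.60 with a standard error of 0.07 and a 95% interval of -0.76 to -0.43 (adjusted p = 0.00149 from edgeR). With each library left out in turn, Tlr8 passed the threshold in 6 of 6 fits, with log2 fold changes of -0.63 to -0.54, and it passed in all 18 alternative analyses run. None of its 42-nt words occurred in another gene.

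Tlr7, a receptor of single-stranded RNA, is the neighbour of Tlr8 on chromosome X (167304929 to 167330558). It had 8208, 6812 and 6887 normalised counts in Pdcd1f/f and 6009, 6501 and 5333 in Pdcd1f/fLysMcre. Every Pdcd1f/fLysMcre library was lower, but the difference did not pass the threshold (log2 fold change -0.29, 95% interval -0.50 to -0.09, adjusted p = 0.0884 from edgeR). Tlr13 (chromosome X from 106143204 to 106160493), the receptor of bacterial 23S ribosomal RNA, had 15085, 13719 and 13213 normalised counts in Pdcd1f/f and 12848, 13799 and 12211 in Pdcd1f/fLysMcre. These groups overlapped (log2 fold change -0.11, 95% interval -0.27 to 0.05, adjusted p = 0.375 from edgeR). With a library left out, the Tlr13 value ran from -0.16 to -0.06, the latter without Pdcd1f/f replicate 1.

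Tlr3 (chromosome 8 from 45395665 to 45411080) had 966, 799 and 797 normalised counts in Pdcd1f/f and 628, 707 and 555 in Pdcd1f/fLysMcre. After Tlr8 it had the most negative fitted change of the 10, with groups that did not overlap, and it missed the threshold narrowly (log2 fold change -0.44, 95% interval -0.69 to -0.19, adjusted p = 0.0526 from edgeR). Of its 42-nt words, 5.63% occurred in Gm45542, an antisense gene that overlaps Tlr3 by 698 bp on the opposite strand. The libraries were made with a stranded kit, but the strand setting of the counting is not given in the sources used here. Tlr9 (chromosome 9 from 106222598 to 106226883) had 1597, 1816 and 1981 normalised counts in Pdcd1f/f and 1564, 1301 and 1594 in Pdcd1f/fLysMcre. Its groups all but touched, at 1597 against 1594, and the change was not past the threshold (log2 fold change -0.27, 95% interval -0.50 to -0.04, adjusted p = 0.142 from edgeR).

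**Figure D2:**
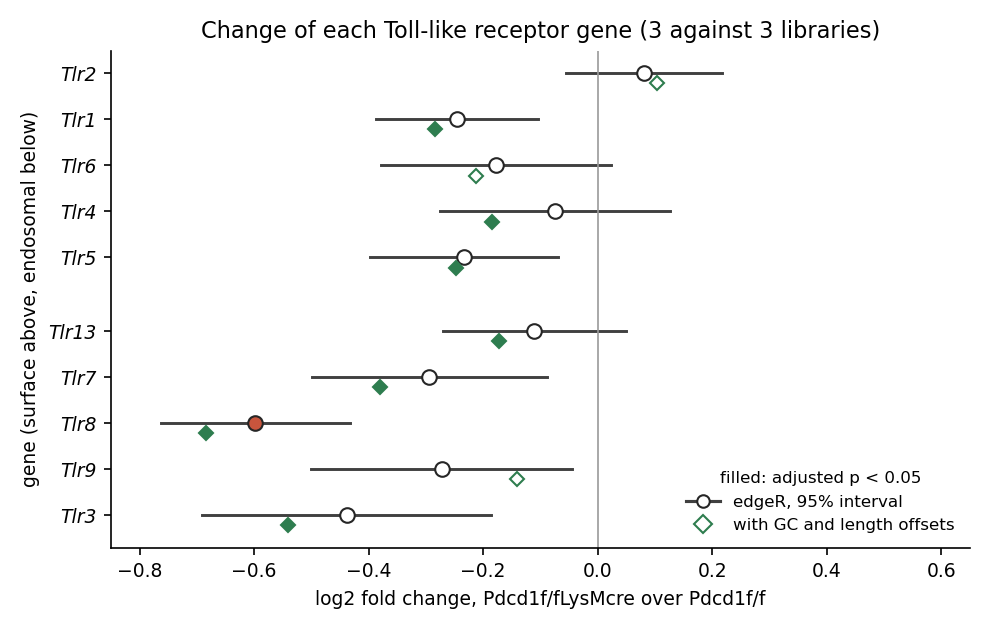
Log2 fold change of each receptor gene, Pdcd1f/fLysMcre over Pdcd1f/f, with its 95% interval (circles and bars) and the same value after offsets for GC content and gene length (diamonds), filled where the adjusted p was under 0.05. Tlr8 is the only filled circle, whereas 7 diamonds are filled, all of them left of zero.

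As classes, surface receptors had a median log2 fold change of -0.18 and endosomal receptors of -0.29, beside a median of -0.003 over all 14469 genes tested, of which 50.4% were negative. None of 5 surface receptors and 1 of 5 endosomal receptors passed the threshold. Without Pdcd1f/f replicate 1 the surface median was -0.11 and the endosomal one -0.35, and 1 surface and 3 endosomal receptors passed, in a fit where 21.6% of all genes tested passed. The classes overlapped gene by gene, since Tlr1, Tlr5 and Tlr6 lay below Tlr13, and no test of one class against the other was made. Of the summed receptor level per kb, endosomal receptors held 49.0%, 47.1% and 47.0% in Pdcd1f/f and 43.3%, 43.1% and 42.5% in Pdcd1f/fLysMcre. Tlr2 alone held 37.1% to 39.2% in Pdcd1f/f and 43.2% to 44.4% in Pdcd1f/fLysMcre, while Tlr8 held 9.55% to 10.2% and 6.92% to 7.07%. These shares depend on each other, since they add up to the whole.

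Ratios between receptor genes inside a library need no scaling between libraries. There were 0.703, 0.742 and 0.730 Tlr8 counts per Tlr7 count in Pdcd1f/f and 0.585, 0.562 and 0.616 in Pdcd1f/fLysMcre. Per Tlr13 count, Tlr8 had 0.382, 0.368 and 0.381 in Pdcd1f/f and 0.274, 0.265 and 0.269 in Pdcd1f/fLysMcre. Both ratios were lower in every Pdcd1f/fLysMcre library, so the step in Tlr8 was also seen relative to the other X-linked receptor genes. Among surface receptors, Tlr1 per Tlr2 was 0.193, 0.195 and 0.191 in Pdcd1f/f and 0.157, 0.152 and 0.153 in Pdcd1f/fLysMcre, again without overlap. Tlr1 per Tlr6, the alternative partners of TLR2, was 4.67 ± 0.317 (SD, n = 3) in Pdcd1f/f and 4.44 ± 0.27 in Pdcd1f/fLysMcre, a difference within the spread between libraries. Over 3 against 3 libraries a two-sided exact permutation test cannot give a p below 0.1, so these ratios stand as descriptions.

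**Figure D3:**
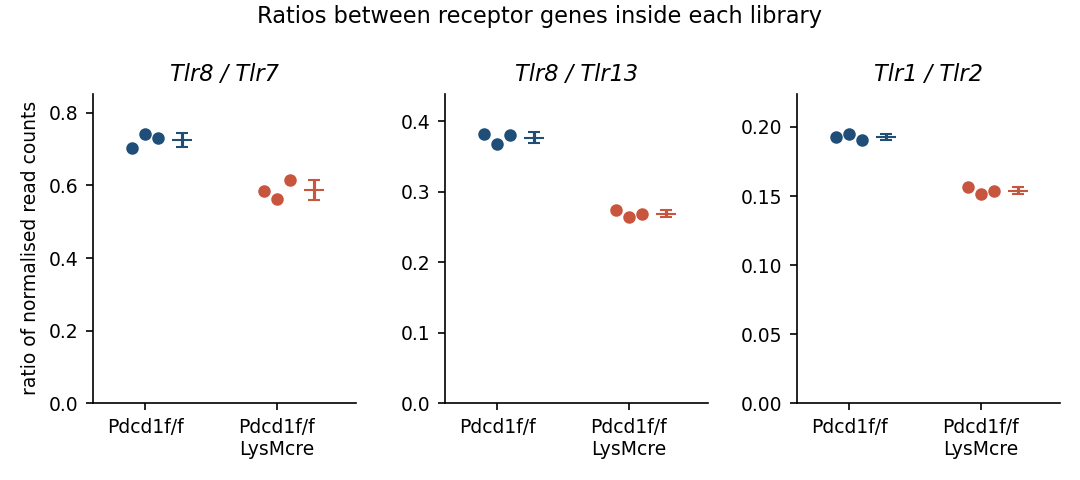
Ratios of normalised read counts of Tlr8 to Tlr7, Tlr8 to Tlr13 and Tlr1 to Tlr2, with 1 point per library and the mean and SD of the 3 libraries of each genotype beside them, on axes that start at 0. In each panel all 3 Pdcd1f/fLysMcre libraries lie below all 3 Pdcd1f/f libraries.

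Tlr7, Tlr8 and Tlr13 lie on chromosome X, where the difference in Xist and Y-linked transcripts between the genotypes could bear on a level. Over the 461 X-linked genes tested the median log2 fold change was 0.04, with 11 lower and 5 higher past the threshold. The lower ones made up 2.39% of the X-linked genes, beside 3.01% of all genes tested. Kdm6a, Kdm5c, Eif2s3x and Ddx3x, X-linked genes known to be transcribed from both X chromosomes and chosen after values were seen, had log2 fold changes of -0.19 to 0.09, and 0 of 4 passed the threshold (1 of 4, Kdm5c, had an unadjusted p under 0.05, at 0.0285, from edgeR). With GC and length offsets Kdm6a passed as lower, at -0.21. The part of sex in the Tlr8 difference was not tested.

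The receptor genes differed in GC content, from 39.4% for Tlr4 to 56.2% for Tlr9, and the libraries followed it. In Pdcd1f/f replicate 1, Tlr3, Tlr7 and Tlr8 were above their group mean by 0.18, 0.17 and 0.13 on the log2 scale and Tlr9 was at -0.17. In Pdcd1f/fLysMcre replicate 2, Tlr3, Tlr7 and Tlr8 were likewise above it by 0.17, 0.13 and 0.07 while Tlr9 was at -0.18, and in replicate 3 of both genotypes the signs were turned around. Tlr8 and Tlr7, at 40.1% and 41.0% GC, deviated with the same sign in each of the 6 libraries.

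**Figure D4:**
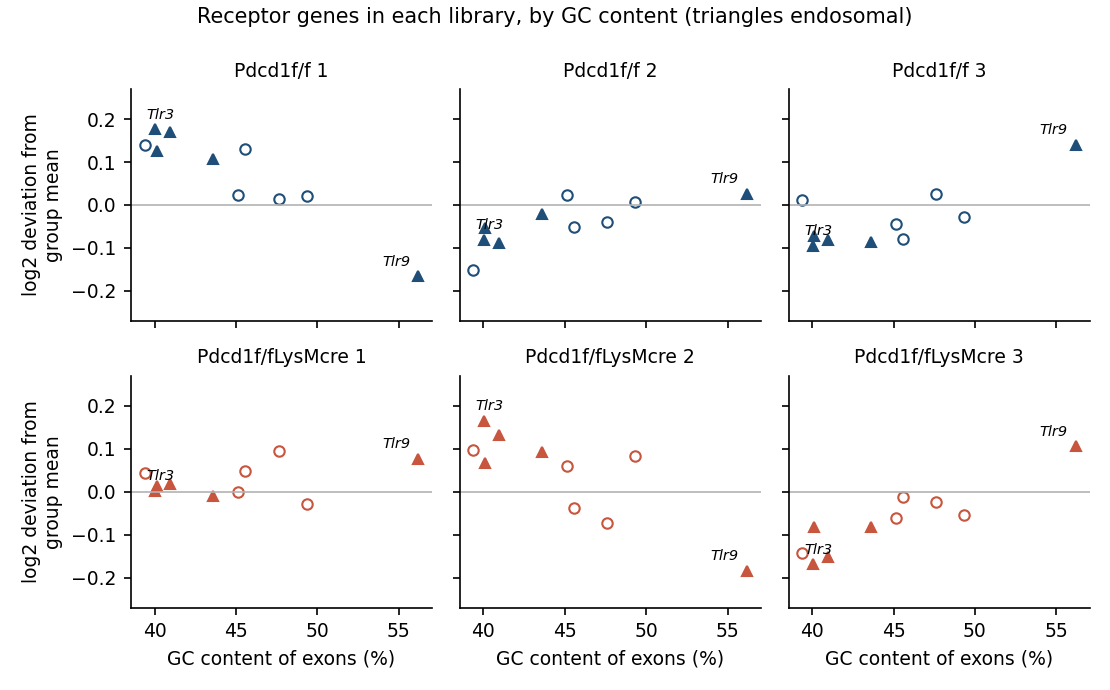
Log2 deviation of each receptor gene from the mean of its genotype in each of the 6 libraries, against the GC content of its exons (open circles surface, filled triangles endosomal receptors). Tlr9, at 56.2% GC, lies on the other side of zero from Tlr3, at 40.0%, in Pdcd1f/f replicates 1, 2 and 3 and in Pdcd1f/fLysMcre replicates 2 and 3.

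When each library's dependence on GC content and gene length was removed with offsets, 7 of the 10 receptor genes passed the threshold, all as lower, beside 7.67% of all genes tested that passed as lower in that fit. They were Tlr1, Tlr4 and Tlr5 of the surface receptors and Tlr3, Tlr7, Tlr8 and Tlr13 of the endosomal ones. Tlr8 was then at -0.68 (95% interval -0.77 to -0.60), Tlr3 at -0.54, Tlr7 at -0.38, Tlr1 at -0.28 and Tlr5 at -0.25. Tlr4, from -0.07, came to -0.19, and Tlr13, from -0.11, to -0.17. The GC-rich Tlr9 moved the other way, from -0.27 to -0.14 (adjusted p = 0.0838 from edgeR), and Tlr2, at 0.10 (95% interval 0.01 to 0.19), still did not pass after adjustment (adjusted p = 0.108 from edgeR). Which of these fits is nearer to the cells' RNA was not tested. Without Pdcd1f/f replicate 1, 4 receptor genes passed, all as lower (Tlr1, Tlr3, Tlr8 and Tlr9), beside 11.5% of all genes tested that passed as lower, against 3.01% with all libraries. Without both this library and Pdcd1f/fLysMcre replicate 2, Tlr7 passed as well, beside 13.6% of all genes tested that passed as lower. In all 18 alternative analyses each of the 10 genes kept the sign of its change.

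Markers of other cells that carry these receptors were set beside the changes. In bulk RNA, fewer cells of a type and less RNA per cell cannot be told apart. Of the 7 macrophage markers, Mertk (log2 fold change -0.61), C1qa (-0.61), Adgre1, which encodes F4/80 (-0.38), and Csf1r (-0.32) fell together with Tlr8, while Itgam (-0.16), Cd68 (-0.06) and Fcgr1 (-0.21) did not pass the threshold. Of 5 markers of plasmacytoid dendritic cells, which are rich in TLR7 and TLR9, 2 had enough counts to be tested and 0 of them passed (0 at an unadjusted p under 0.05, from edgeR), with summed levels of 34.3 to 62.4 in Pdcd1f/f and 43.8 to 51.8 in Pdcd1f/fLysMcre and Klk1 at 0 in all libraries. For conventional dendritic cells, of which a subset carries TLR3, 0 of the 3 tested of 5 markers passed (2, Flt3 and Zbtb46, at an unadjusted p under 0.05, from edgeR), and the summed level was higher in Pdcd1f/fLysMcre, at 197.1 to 198 against 103.9 to 141.9. Of 8 neutrophil markers, 5 were tested and Csf3r alone passed, as lower. Of 6 fibroblast or fibrosarcoma markers, Col1a2 alone passed, as lower (log2 fold change -1.0, adjusted p = 0.0121 from edgeR). Cd79b, a B cell gene, was at -0.52 and did not pass (adjusted p = 0.0670 from edgeR). These marker calls are from the main analysis. With GC and length offsets, Fcgr1 (log2 fold change -0.15), the neutrophil marker Retnlg (-0.98) and Cd79b (-0.44) also passed as lower. Zbtb46 (0.70) passed as higher in that fit, where 18.9% of all genes tested passed in either direction. The part of these cells and of the macrophage markers in the receptor changes was not tested.

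The genes whose levels followed Tlr8 most closely over the 6 libraries were March1, an E3 ubiquitin ligase that acts on MHC class II (Pearson r = 0.9996 of log2 CPM), Rnf150 (0.998) and Selenop, which encodes a secreted selenium carrier (0.997). Their log2 fold changes were -0.40, -0.69 and -0.63. The 6 libraries hold the genotype difference itself, so these correlations describe a shared step between the groups.

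The sequence upstream of the gene start in RefSeq is shown for Tlr8, the receptor gene that fell, and Tlr2, the one with a positive fitted value. RefSeq promoter entries on GRCm38.p6 matched 8 of the 10 genes. The 250 bases before the start are printed 5′ to 3′ on the gene's strand, in lower case, with motif matches in capitals, for Tlr8 at chrX:167264330-167264579 and Tlr2 at chr3:83841609-83841858, both minus strand. The Tlr8 window ends where the GENCODE gene begins, whereas the RefSeq start of Tlr2 lies inside the GENCODE gene, so that 159 bases of its window lie within the Tlr2 span given above.
Tlr8: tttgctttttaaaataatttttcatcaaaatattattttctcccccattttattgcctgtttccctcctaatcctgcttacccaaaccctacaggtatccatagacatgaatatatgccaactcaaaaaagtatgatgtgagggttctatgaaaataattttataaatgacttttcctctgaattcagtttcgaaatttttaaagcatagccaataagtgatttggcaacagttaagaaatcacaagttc
Tlr2: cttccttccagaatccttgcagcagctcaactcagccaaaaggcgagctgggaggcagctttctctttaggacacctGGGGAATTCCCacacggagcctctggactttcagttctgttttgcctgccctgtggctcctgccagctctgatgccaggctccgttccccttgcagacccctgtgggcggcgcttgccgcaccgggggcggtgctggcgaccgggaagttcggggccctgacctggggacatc
Searched on both strands were the PU.1 core GAGGAAG, the AP-1 motif TGANTCA and the NF-kB consensus, which are found in 10.6%, 6.75% and 3.90% of 32851 promoter windows of the same length. The Tlr8 window, with 31.2% GC, held no match to these 3 motifs. The Tlr2 window, with 62.8% GC, held overlapping NF-kB consensus matches that begin 173 and 172 bases before the RefSeq start.

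Genes that act with the receptors were counted by role from a list of 41, all of which were tested. Of these, 3 rose and 2 fell in Pdcd1f/fLysMcre TAMs, with 22 negative and 19 positive fitted changes and a median of -0.09. Over all genes tested 5.43% passed, 350 as higher and 436 as lower. With GC and length offsets 19 of the 41 passed, 11 as higher and 8 as lower, beside 18.9% of all genes tested. The higher ones were Cd14, Cd36, Cd180, Hsp90b1, Pld3, Wdfy1, Irak2, Traf3, Traf6, Irak3 and Tollip. The lower ones were Ly86, Unc93b1, Cnpy3, Lgmn, Ctsb, Ctsl, Pld4 and Tnfaip3. Calls given below are from the main analysis unless offsets are named.

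Of 6 surface coreceptor and ligand transfer genes, 2 rose and 1 fell. Cd36, a scavenger receptor that hands lipids to TLR2 with TLR6, had 696, 667 and 672 normalised counts in Pdcd1f/f and 1305.5, 1452 and 1142.5 in Pdcd1f/fLysMcre (log2 fold change 0.94, adjusted p = 0.000490 from edgeR). Cd180, a TLR4 homologue, had 8295, 7132 and 6817 against 10220.0, 11116 and 9418 (log2 fold change 0.47, adjusted p = 0.0128 from edgeR). The Cd180 call was lost in 3 of 6 fits with a library left out, those without Pdcd1f/f replicate 2 and without Pdcd1f/fLysMcre replicate 1 or 2 (adjusted p up to 0.0780 from edgeR). Ly86, which encodes MD-1, the protein bound to CD180, moved the opposite way, with 4451, 4287 and 4234 against 3294, 3232 and 2965 (log2 fold change -0.45, adjusted p = 0.00348 from edgeR). Groups of these genes did not overlap. Cd14, which transfers lipopolysaccharide to TLR4, and Ly96, which encodes MD-2, had log2 fold changes of 0.15 and -0.05 and did not pass.

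Of 8 genes for trafficking and processing of endosomal receptors, 1 fell and 7 had negative fitted changes. Lgmn, the lysosomal protease legumain, had 138550.0, 151296 and 152612 normalised counts in Pdcd1f/f and 123238, 122933 and 127210.0 in Pdcd1f/fLysMcre, with an adjusted p just under the threshold (log2 fold change -0.24, adjusted p = 0.0498 from edgeR). The Lgmn call was lost in 5 of 6 fits with a library left out, all but that without Pdcd1f/f replicate 1 (adjusted p of 0.00545 to 0.257 from edgeR), and with limma-trend, the replicate block and length offsets alone, and it held in 10 of 18 alternatives. Unc93b1, the carrier of nucleic acid receptors from the endoplasmic reticulum to endosomes, had 14047, 17850.0 and 18872 against 12868, 11528 and 13782, and did not pass (log2 fold change -0.41, adjusted p = 0.0559 from edgeR). With GC and length offsets Unc93b1 passed as lower, at a smaller log2 fold change of -0.26 (adjusted p = 0.000703 from edgeR). Hsp90b1, a chaperone of most Toll-like receptors, was the 1 gene of this role with a positive fitted change, at 0.21 (adjusted p = 0.185 from edgeR). With GC and length offsets Hsp90b1 passed as higher, at 0.14 (adjusted p = 0.0342 from edgeR). Slc15a4, another gene of this role, then also had a positive value, at 0.03. Of 5 nuclease genes that make or remove ligands of endosomal receptors, 0 passed from edgeR (1, Pld4, at an unadjusted p under 0.05, with a log2 fold change of -0.37 and an adjusted p of 0.0528).

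Of 6 adaptor genes, Wdfy1, which encodes a protein reported to bridge TLR3 and TLR4 with TRIF, rose, with 1859, 1799.9 and 1778 normalised counts in Pdcd1f/f and 4388, 4744 and 4540.5 in Pdcd1f/fLysMcre (log2 fold change 1.33, adjusted p = 2.49e-06 from edgeR). Wdfy1 lies on chromosome 1 from 79702262 to 79776143, and the floxed Pdcd1 on the same chromosome from 94038305 to 94052553. Whether this position bears on the Wdfy1 rise was not tested. The paper lists Wdfy1 as upregulated also in TAMs with a myeloid deletion of SHP-2. Myd88 was at -0.16 and Ticam1, which encodes TRIF, at 0.06, and neither passed. With GC and length offsets Myd88 was at -0.08 and Ticam1 at 0.20, and again neither passed. Of the 9 kinases and ubiquitin ligases, 7 had positive fitted changes and 0 passed (3, Traf3, Traf6 and Tab1, at an unadjusted p under 0.05, from edgeR). Of 4 brakes 0 passed (1, Irak3, at an unadjusted p under 0.05, from edgeR), and of the transcription factor genes Irf3, Irf5 and Irf7 0 passed (0 at an unadjusted p under 0.05, from edgeR). With each library left out in turn, 3 to 18 of the 41 genes passed, with 18 when Pdcd1f/f replicate 1 was absent, where 21.6% of all genes tested passed.

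**Figure D5:**
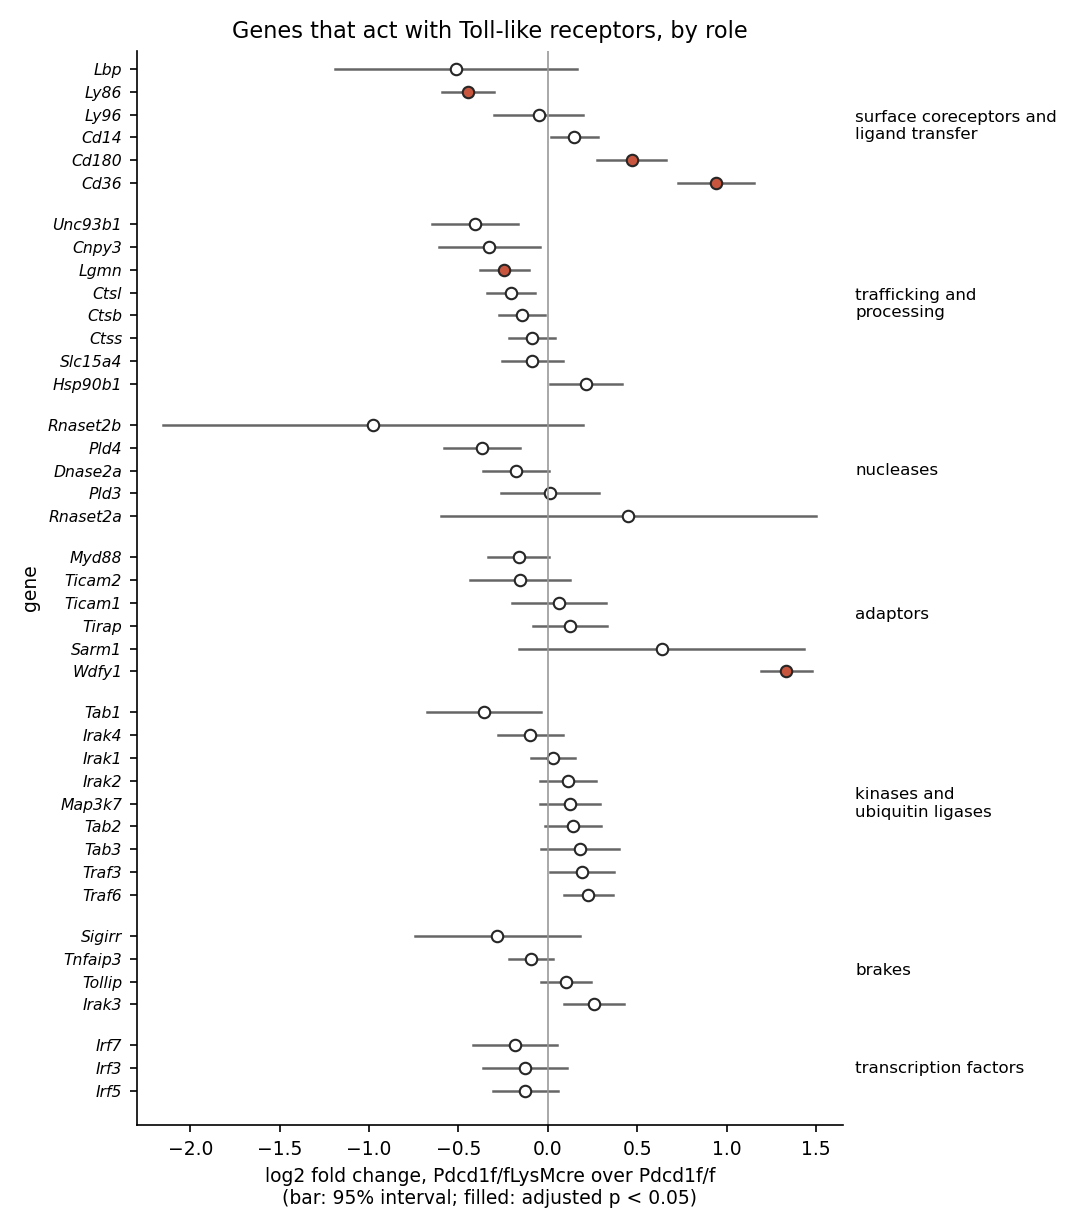
Log2 fold change of 41 genes that act with Toll-like receptors, Pdcd1f/fLysMcre over Pdcd1f/f, with 95% intervals, grouped by role and filled where the adjusted p was under 0.05. The 5 filled points are Cd36, Cd180 and Wdfy1 to the right of zero and Ly86 and Lgmn to the left.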

How the data were processed

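RNA-seq of TAMs was analysed in 6 libraries, 3 for each genotype, grouped by the labels. By the study's methods and the submitters' processing notes, the authors removed adapters with cutadapt 2.5, aligned reads to GRCm38 with STAR 2.7.3a and counted reads per Ensembl gene by featureCounts (Subread 1.6.2). They deposited raw counts, and a signal table in which the authors divided counts by a DESeq2 (1.24.0) size factor per library.

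Raw counts were compared with edgeR 4.0.16 (R 4.3.3): filterByExpr (minimum count 10, minimum total 15), TMM, robust glmQLFit, two-sided glmQLFTest, and Benjamini-Hochberg adjustment over 14469 genes with a threshold of 0.05. The code was tested on simulated data. Library totals ranged from 41833823 to 51417209, and the biological coefficient of variation was 8.92%. Positions, exon lengths and GC content came from GENCODE M21, which names 14461 of the genes tested. Promoters came from RefSeq (GRCm38.p6). Proteins were not analysed here.

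Alternatives were RLE size factors, library size alone, other filters, DESeq2 1.42.0, limma-trend (limma 3.58.1) on log2(normalised count + 1), the replicate number as a block, offsets per library from loess curves on GC content and length (span 0.5), each library left out, and a threshold of 0.01.

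The receptor genes, partner lists and tests were chosen with earlier results of these data known. Named were the 10 receptor genes, Tlr11 and Tlr12, Pdcd1, Lyz2, sex-linked transcripts, cell type markers, every partner past the threshold with up to 3 others per role, and the 3 genes most alike to each receptor gene past it. Kdm6a, Kdm5c, Eif2s3x and Ddx3x were added after values were seen. Some marker results are not reported here.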

Additional observations from a re-analysis of the deposited data

How the results depend on the processing

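All 10 receptor genes kept their sign in 18 alternatives, and Tlr8 passed in all of them, with log2 fold changes of -0.69 to -0.54. RLE factors, at least 10 counts in every library, limma-trend and length offsets gave 1 receptor gene, as the main analysis did. More passed (all genes; receptor genes; surface; endosomal; partner genes) with library size alone (807, 3, 1, 2, 7), when every gene with a count was kept (1951, 5, 1, 4, 11), DESeq2 (1517, 4, 1, 3, 10), offsets for GC content and length (2734, 7, 3, 4, 19) and GC offsets alone (2616, 8, 4, 4, 17). The separate GC and length offsets were added after the data were seen. The replicate block gave 1027, 3, 0, 3 and 6, and 2838, 7, 3, 4 and 20 with the offsets. The replicate numbers are not said to pair the libraries. Correlations of deviations for replicates 1, 2 and 3 were -0.03, -0.19 and 0.40, which do not decide whether they do. With each library left out, 222 to 3181 genes, 1 to 4 receptor genes, 0 to 1 surface, 1 to 3 endosomal and 3 to 18 partner genes passed. The highest values came without Pdcd1f/f replicate 1 (3181, 4, 1, 3, 18) and the lowest count of all genes without Pdcd1f/fLysMcre replicate 1. It was 224 without Pdcd1f/f replicate 2, 354 without Pdcd1f/f replicate 3 and 370 without Pdcd1f/fLysMcre replicate 2. Surface and endosomal medians ranged from -0.22 to -0.11 and -0.36 to -0.31. Without both Pdcd1f/f replicate 1 and Pdcd1f/fLysMcre replicate 2, chosen after the data were seen, 3757 genes, 5 receptor genes, 1 surface, 4 endosomal and 24 partner genes passed, with a surface median of -0.0896. At a threshold of 0.01, 283 genes and 1 receptor gene (Tlr8) passed. The cause of these shifts was not tested.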

Other observations

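Tlr11 and Tlr12, receptors of profilin-like proteins in mice, were scarcely counted in these TAMs. Tlr11 had 8, 3 and 9 counts in Pdcd1f/f and 4, 7 and 3 in Pdcd1f/fLysMcre and was too low to be tested. Tlr12 had 18, 14 and 16 counts in Pdcd1f/f and 11, 17 and 8 in Pdcd1f/fLysMcre, with a log2 fold change of -0.53 whose 95% interval ran from -1.40 to 0.33 (adjusted p = 0.430 from edgeR).

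In the other RefSeq promoter windows, the PU.1 core GAGGAAG was found 112 and 83 bases before the RefSeq start of Tlr9 and Tlr13. It was also found 23 bases before 1 of the 2 RefSeq starts of Tlr1, and the window of the other start held no match. An NF-kB consensus match began 211 bases before the RefSeq start of Tlr3, in a window that lies wholly within the GENCODE gene, and the AP-1 motif TGANTCA was found 58 bases before that of Tlr9. None of the searched letters was found in the windows of Tlr5 and Tlr6. These matches are descriptions of sequence, and the data hold no measure of binding.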
